A study of Caenorhabditis elegans with 6 samples.

Results

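The genes described here are 10 collagens of the *C. elegans* cuticle whose mutants have an altered body shape, namely *sqt-1*, *sqt-2*, *sqt-3*, *rol-6*, *rol-8*, *lon-3*, *dpy-4*, *dpy-5*, *dpy-13* and *dpy-17*. They were chosen by name, as collagens that set body shape but do not belong to the group that lines the furrows of the cuticle. All 10 were found on the array, with 25 of its 43603 probes, among 20270 genes that could be given a current symbol. Hermaphrodites of the wild-type Bristol N2 strain were fed pRJ-Fr.5, a fraction of protease-treated royal jelly, or left untreated as the control, for 24 h from the last larval stage (L4). The dose is 25 mg/ml by the labels but 25 µg/ml by the study's methods, against 0 in control worms. RNA of whole worms was labeled with Cy3 and hybridized to a 1-color Agilent array, with 3 arrays of pRJ-Fr.5 worms and 3 of control worms, each array holding RNA pooled from many worms. Nothing in the labels says whether the replicates came from separate cultures, so that p-values here measure the spread between these samples, which may be technical.

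The cuticle is an exoskeleton of the worm that the epidermis lays down anew at every molt. Its main components are short collagens, in which repeats of glycine and other residues wind the chains into a triple helix. The chains are hydroxylated on prolines, folded and joined by disulfide bonds in the epidermis, then trimmed by proteases and crosslinked outside the cell. Loss of a single collagen can change the form of the whole animal. Dumpy (dpy) and squat (sqt) mutants are short and stout, roller (rol) mutants have a helically twisted body and move in circles, and long (lon) mutants are elongated.

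With pRJ-Fr.5, 8 of the 10 collagens were lower than in control worms, by 1.51-fold (*dpy-5*) to 3.35-fold (*lon-3*), past an adjusted p of 0.05 in limma. The other two, *sqt-3* and *dpy-17*, did not pass the test, and *dpy-17* was the one collagen of the 10 with a higher mean in pRJ-Fr.5 worms. No collagen of the 10 was called higher (0 by limma, and 0 at an unadjusted p under 0.05). As background, 19.1% of the 16048 genes tested were called lower and 9.88% higher. Array names without a current symbol count as genes in these totals. In 6 collagens the decrease also reached 1.8-fold, the size used in the study's methods, which 2.12% of all genes did. The 8 that passed were also those in which every pRJ-Fr.5 array lay below every control array, as was the case for 25.3% of all genes. The median log2 fold change of the 10 was -1.20, beside 0.03 over all genes tested. All 25 probes were well above background on all 6 arrays, so that none of the 10 was lost to the filter on dim signals.

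**Figure D1:**
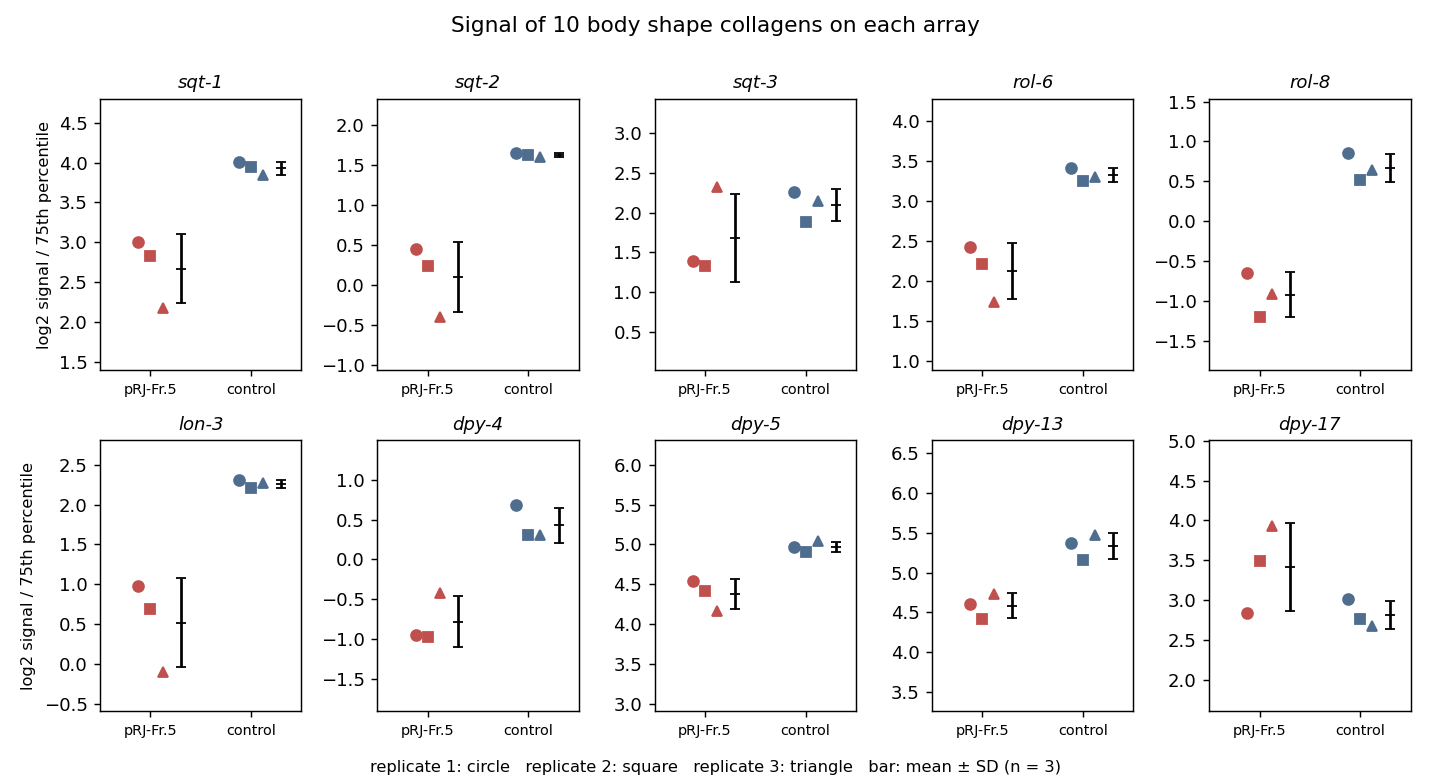
Signal of each body shape collagen on each array, as log2 of the signal over the 75th percentile of the array, with the mean and SD (n = 3) beside the points of each group. Every panel spans the same height, and the groups are apart in every panel but those of *sqt-3* and *dpy-17*.

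Signals are given as log2 of the spot intensity over the 75th percentile of its array, averaged over the probes of a gene, so that 0 is the level of that percentile. They are compared between groups for a gene and not between genes, since different probes bind with different strength. A difference of 1 on this scale is a 2-fold difference.

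*sqt-1*, whose collagen is known to interact genetically with that of *rol-6*, was measured by 1 probe. Its signal was 3.00, 2.83 and 2.18 on pRJ-Fr.5 replicates 1, 2 and 3, against 4.00, 3.94 and 3.84 on the control replicates. The control arrays lay close together, and the pRJ-Fr.5 arrays lay well below them and further apart, replicate 3 being the lowest. The mean was 2.67 ± 0.43 with pRJ-Fr.5 and 3.93 ± 0.08 in control worms (SD, n = 3 each). The log2 fold change was -1.26 ± 0.20 (SE) with an adjusted p of 0.00456 in limma, a 2.39-fold lower signal.

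*rol-6* is best known for a dominant allele that makes worms roll and serves as a marker of transgenic animals. Its single probe gave 2.42, 2.22 and 1.74 with pRJ-Fr.5 and 3.42, 3.26 and 3.30 in control worms. As for *sqt-1*, replicate 3 was the lowest of the pRJ-Fr.5 arrays, and the groups did not overlap. The log2 fold change was -1.20 ± 0.17 (SE), or 2.30-fold lower, and limma gave an adjusted p of 0.00295.

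*sqt-2*, another collagen whose mutants are squat or roll, had 3 probes. Averaged over them, the signal was 0.45, 0.24 and -0.40 with pRJ-Fr.5 and 1.65, 1.63 and 1.60 in control worms. The control arrays differed by little (SD 0.03, n = 3), whereas the pRJ-Fr.5 arrays were spread more widely (SD 0.44, n = 3) and were all lower. Its log2 fold change was -1.53 ± 0.20 (SE), at an adjusted p of 0.00251 in limma. All 3 probes were called lower, with log2 fold changes from -1.57 to -1.47.

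*rol-8* was measured by 2 probes, designed to transcripts a and b of the gene in the array's annotation. The mean signal was -0.65, -1.20 and -0.92 on the pRJ-Fr.5 arrays, against 0.86, 0.51 and 0.65 on the control arrays. Here replicate 2 and not replicate 3 was the lowest of the pRJ-Fr.5 arrays. The decrease was 3.02-fold, or -1.59 ± 0.16 (SE) on the log2 scale (limma, adjusted p = 0.00203), and it was -1.60 at the probe for transcript a and -1.59 at the probe for transcript b.

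*lon-3* encodes a collagen whose loss makes worms long and whose excess makes them dumpy. The signal of its probe was 0.98, 0.69 and -0.11 with pRJ-Fr.5, against 2.31, 2.21 and 2.27 in control worms. The lowest control array was thus more than 1 log2 unit above the highest pRJ-Fr.5 array. This was the largest decrease among the 10, with a log2 fold change of -1.74 ± 0.26 (SE) and an adjusted p of 0.00335 in limma. Counted from the lowest fold change of all 16048 genes, *lon-3* was number 4, *rol-8* number 9 and *sqt-2* number 16. Since every one of them was well above background on all arrays, these positions rest on measured signals in both groups. Genes without such a signal on every array, as where it fell to background with pRJ-Fr.5, were left out of this ranking. Control replicate 3 alone left out more genes than any other array. Without it 18488 genes could be tested, and without any 1 other array 16048 to 16067.

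Among the 4 dumpy collagens of the 10, *dpy-4* had the largest decrease. Its probe gave -0.95, -0.97 and -0.42 with pRJ-Fr.5 and 0.68, 0.30 and 0.30 in control worms. In this gene replicate 3 was the highest of the pRJ-Fr.5 arrays and still lay below all control arrays. The signal was 2.31-fold lower (log2 fold change -1.21 ± 0.18 SE, limma adjusted p = 0.00341).

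The decreases of *dpy-13* and *dpy-5*, whose loss shortens the worm, were smaller. *dpy-13* gave 4.61, 4.42 and 4.73 with pRJ-Fr.5 and 5.37, 5.16 and 5.47 in control worms, which is 1.68-fold lower (log2 fold change -0.75 ± 0.11 SE, limma adjusted p = 0.00361). It was the only one of the 10 whose SD was not larger over the pRJ-Fr.5 arrays (0.156, n = 3) than over the control arrays (0.162, n = 3). *dpy-5* gave 4.55, 4.41 and 4.17 with pRJ-Fr.5 and 4.96, 4.91 and 5.04 in control worms, so that its log2 fold change was -0.60 ± 0.10 (SE, limma adjusted p = 0.00638). Its 2 probes were both called lower but differed in size, with log2 fold changes of -0.79 and -0.40. The brighter probe had the smaller change.

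The collagens of *sqt-3* and *dpy-17* are known to depend on each other, since DPY-17 is needed for the secretion of SQT-3, and both are substrates of the astacin protease DPY-31. Neither passed the test. For *sqt-3* the signal was 1.39, 1.33 and 2.32 with pRJ-Fr.5, against 2.26, 1.88 and 2.15 in control worms. Replicates 1 and 2 with pRJ-Fr.5 were lower than every control array and replicate 3 was higher than every one, so that the groups overlapped. The log2 fold change was -0.42, with a 95% interval from -1.05 to 0.22 (adjusted p = 0.269 from limma). Its 2 probes did not agree. On the dimmer probe the values were -2.58, -2.63 and -0.70 with pRJ-Fr.5 and -1.02, -1.50 and -1.31 in control worms, while the brighter probe was nearly level, at 5.36, 5.30 and 5.34 with pRJ-Fr.5 and 5.55, 5.26 and 5.60 in control worms. The high reading of replicate 3 thus came from the dimmer probe alone. Without pRJ-Fr.5 replicate 3, *sqt-3* was called lower, at -0.74 (adjusted p = 0.00854 from limma), whereas it was at -0.27 without replicate 1 (adjusted p = 0.500) and at -0.24 without replicate 2 (adjusted p = 0.568). The low values of replicates 1 and 2 also lay mainly in the dimmer probe, and so the call without replicate 3 rests mainly on it. With the brighter probe alone, on all 6 arrays, *sqt-3* was at -0.14 (adjusted p = 0.325 from limma).

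For *dpy-17* the mean over 11 probes was 2.83, 3.49 and 3.93 with pRJ-Fr.5 and 3.01, 2.76 and 2.67 in control worms. Replicate 1 was within the range of the control arrays, whereas replicates 2 and 3 were above it. The log2 fold change was 0.60, with a 95% interval from -0.02 to 1.23 (adjusted p = 0.128 from limma). All 11 probes had a higher mean in pRJ-Fr.5 worms, by log2 values from 0.49 to 0.91, and the spread was thus one between arrays that all probes shared. Without pRJ-Fr.5 replicate 1, *dpy-17* was called higher, at 0.89 (adjusted p = 0.00768 from limma), whereas without pRJ-Fr.5 replicate 3 it was at 0.35 (adjusted p = 0.260).

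**Figure D2:**
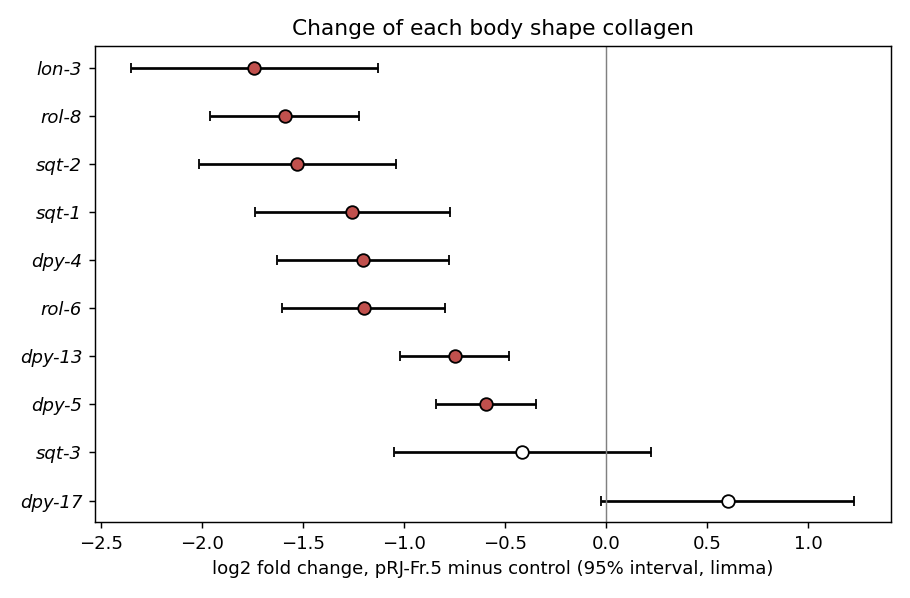
Log2 fold change of each collagen (pRJ-Fr.5 minus control) with its 95% interval from limma. Filled points passed an adjusted p of 0.05. The intervals of *lon-3*, *rol-8* and *sqt-2* lie wholly below -1, and those of *sqt-3* and *dpy-17* include 0.

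**Figure D3:**
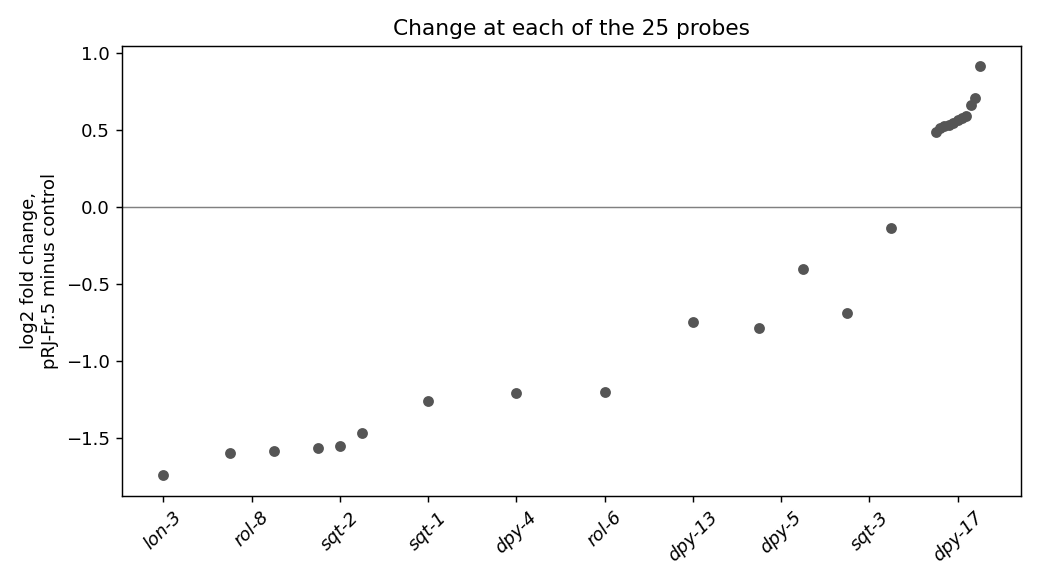
Log2 fold change (pRJ-Fr.5 minus control) at each of the 25 probes, 1 point a probe, ordered by the change of the gene. The 3 probes of *sqt-2* and the 2 of *rol-8* lie together, while the 2 probes of *sqt-3* differ, at -0.69 and -0.14.

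At the level of probes, 12 of the 25 were called lower and 0 higher by limma, beside 16.2% of 27514 probes called lower. At an unadjusted p under 0.05, 4 probes were higher, all of *dpy-17*. The probes not called by limma were the 11 of *dpy-17*, these 4 included, and the 2 of *sqt-3*. Of the 10 genes, 5 were measured by 1 probe, and for these no second probe can be set beside the first. Cuticle collagens resemble one another in sequence, and signal shared between related collagens was not tested.

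From the largest decrease to the smallest, the order was *lon-3*, *rol-8*, *sqt-2*, *sqt-1*, *dpy-4*, *rol-6*, *dpy-13* and *dpy-5*, but the 95% intervals of neighbors in this order overlapped. To compare changes between genes, the signal of each gene minus the mean of the other 9 was taken on every array. For *dpy-17* this difference was 1.08 to 2.45 on the pRJ-Fr.5 arrays and -0.07 to 0.18 on the control arrays. Its change was thus 1.75 (standard error 0.41) above that of the other 9. The change of *lon-3* was 0.86 below that of the others (a difference of -0.86, standard error 0.32), that of *rol-8* was at -0.69 (standard error 0.15) and that of *dpy-5* at 0.41 (standard error 0.11). For *sqt-2* the difference was -0.62 (standard error 0.25), for *sqt-3* 0.62 (standard error 0.39) and for *rol-6* -0.26 (standard error 0.19). For each gene but *dpy-17*, the mean of the other 9 included *dpy-17*, which lowers the difference. In all of these named genes the groups of arrays did not overlap, and the exact two-sided permutation test gave p = 0.1 each (adjusted p = 0.143 over the 10 genes). That is the smallest p this test can reach with 3 arrays against 3, so that it could not pass 0.05 whatever the values were, and the differences are given by their size and standard error alone.

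The spread over the pRJ-Fr.5 arrays was the larger one in 9 of the 10 collagens, whereas this was so in 56.9% of all genes. The SD ranged from 0.16 to 0.56 over the pRJ-Fr.5 arrays and from 0.03 to 0.22 over the control arrays. Much of it lay in replicate 3. Set against the control mean, this array was at -2.37 for *lon-3*, -2.03 for *sqt-2*, -1.75 for *sqt-1* and -1.59 for *rol-6*, in each case below the other two pRJ-Fr.5 arrays. The same array was the highest of the pRJ-Fr.5 arrays for *dpy-17* (1.11), *sqt-3* (0.22), *dpy-13* (-0.61) and *dpy-4* (-0.84). Replicate 3 was thus the lowest pRJ-Fr.5 array in 5 of the 10 collagens and the highest in 4. The 10 collagens thus did not deviate the same way on this array.

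**Figure D4:**
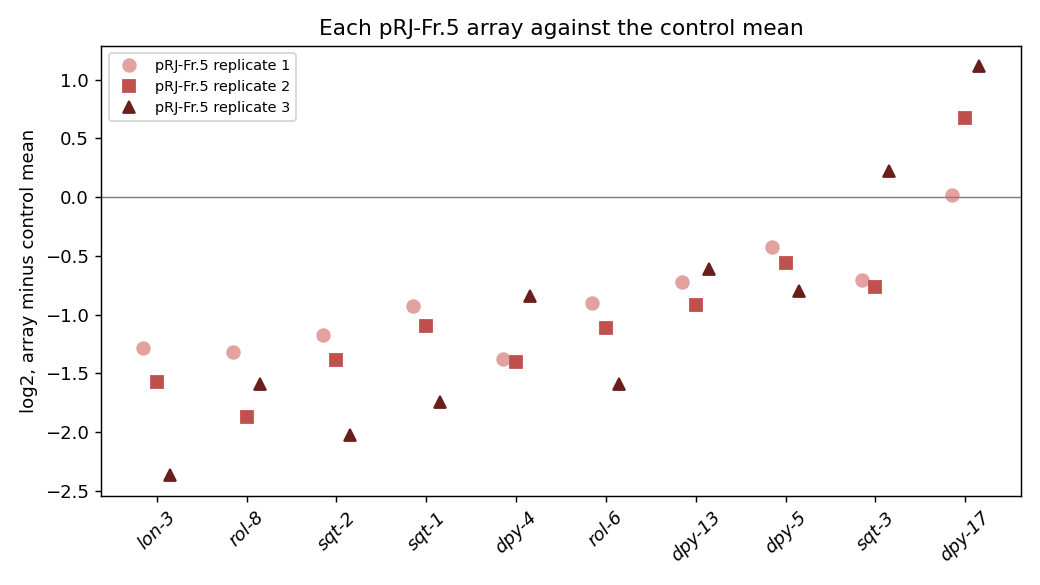
Each pRJ-Fr.5 array minus the mean of the control arrays, in log2, for each collagen. Replicate 3 (triangles) lies at the bottom for *lon-3*, *sqt-2*, *sqt-1*, *rol-6* and *dpy-5* and at the top for *dpy-4*, *dpy-13*, *sqt-3* and *dpy-17*.

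The 6 arrays lay on 2 slides. Slide 1 held replicates 1 and 2 of both groups, and slide 2 held replicate 3 of both. The 8 collagens that were called were lower within slide 1 and also within slide 2. The difference was smaller within slide 1 than within slide 2 for *lon-3* (-1.43 and -2.37), *sqt-1* (-1.06 and -1.66), *rol-6* (-1.02 and -1.56) and *dpy-5* (-0.46 and -0.87), and likewise for *sqt-2*. Slide 2 gives a single pair of arrays and no test. For *dpy-4* the difference was -1.45 within slide 1 and -0.72 within slide 2, and for *rol-8* it was -1.61 and -1.56. *sqt-3* differed in sign, at -0.71 within slide 1 and 0.17 within slide 2, and *dpy-17* was at 0.27 and 1.26. *dpy-13* was at -0.75 within both. With the slide as a block, the same 8 collagens were called by limma, with adjusted p between 0.00364 and 0.0100. In that fit, 2985 of the 16048 genes tested were called lower. Control replicate 3 was of lower quality than the other arrays, with 27725 probes well above background against 32814 to 34548. For the 10 collagens, its signals were nevertheless at most 0.379 log2 units from the other control arrays. Without it, the same 8 were called lower, as were 2412 of the 18488 genes then tested.

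Other collagens and the enzymes that act on them were set beside the 10. Of the 3 blister collagens, which are needed for the struts between the layers of the adult cuticle, all were called lower, with a median of -1.51 (*bli-1* -1.60, *bli-6* -0.98). Of the 6 furrow collagens, 3 were called lower, with a median of -0.50, from -1.39 (*dpy-8*) to 0.06 (*dpy-10*). Among the 127 numbered collagens (col genes) that could be tested, 51 were called lower (40.2%) and 1 higher, with a median of -0.59. For another 30 col genes no probe passed the filter on all 6 arrays. For the 10 body shape collagens, the share called lower was 80.0%. These differences between lists were not tested, and the lists were drawn up with results of these arrays known.

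**Figure D5:**
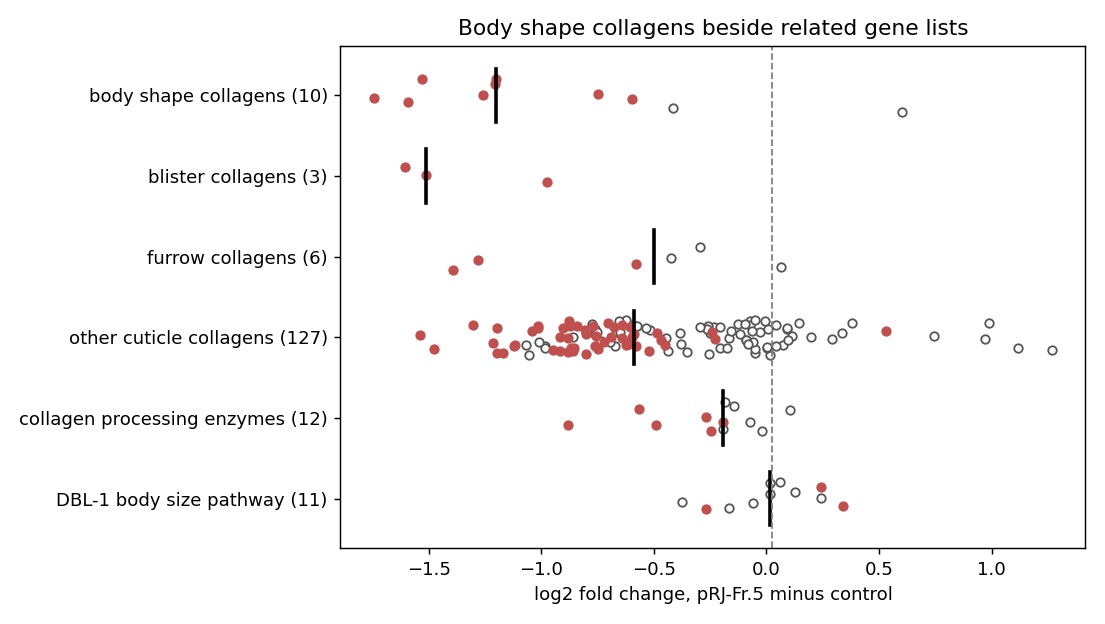
Log2 fold change (pRJ-Fr.5 minus control) of every tested gene of 6 lists, with the number of genes in parentheses. Filled points passed an adjusted p of 0.05, the black bar is the median of the list, and the dashed line is the median of all genes, 0.03.

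Of 12 genes whose products process or crosslink collagen, 6 were called lower and 0 higher by limma (7 and 0 at an unadjusted p under 0.05), and the median was -0.19. The largest was that of *bli-5*, a protein with a protease inhibitor domain (-0.88, adjusted p = 0.00257 from limma). *dpy-18* and *phy-2*, the catalytic subunits of the main prolyl 4-hydroxylases, had log2 fold changes of -0.49 and -0.57 (adjusted p = 0.00396 and 0.00359 from limma). The protease gene *dpy-31*, whose product cleaves SQT-3 and DPY-17, was at -0.02 (adjusted p = 0.830 from limma). The DBL-1 pathway is a TGF-beta pathway that sets body size and is known to regulate cuticle collagen genes. Of its 11 genes tested, 1 was called lower (*drag-1*, a co-receptor, -0.27) and 2 higher (the receptor *daf-4*, 0.24, and *sma-10*, 0.34), with a median of 0.02. Its lowest fold change, that of *lon-1* (-0.38, adjusted p = 0.0675 from limma), did not pass, and the ligand gene *dbl-1* was at -0.17 (adjusted p = 0.0638 from limma).

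Whole worms were used. A lower signal can thus come from a smaller share of epidermal RNA in the sample or from less collagen RNA within that share. These cannot be told apart. Of 9 genes tested that mark the epidermis or regulate its genes, 4 were called lower. These were *bed-3* (-0.82), *che-14* (-0.54), *blmp-1* (-0.49) and *lin-29* (-0.47). The epidermal factors *elt-1*, *elt-3* and *lin-26* were at -0.05, 0.08 and 0.18 and were not called, nor was *nhr-23* (-0.003, adjusted p = 0.981 from limma). *nhr-25* had the highest fold change of the list (0.43, adjusted p = 0.0943 from limma) and was not called either. At an unadjusted p under 0.05, 4 of the 9 were lower and 2 higher. The summed signal of the 9, as multiples of the 75th percentile, was 4.61 to 5.04 over the pRJ-Fr.5 arrays and 4.40 to 4.79 over the control arrays, and the groups overlapped. Most of this sum was that of *elt-3* and *lin-26*, so that it could hardly show the decrease of the 4 called lower. Of 3 collagens that mark the adult cuticle, *col-62* and *col-7* were called lower (-0.47 and -0.23), while *col-19* was at -0.06 (adjusted p = 0.552 from limma).

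Markers of other tissues were mostly not called, but neither were most genes tested (19.1% were called lower and 9.88% higher). Of the body wall muscle, neuron and germline genes (6 each), 0 were called in either direction by limma. In lists this short, 0 calls say little beside those shares. All 6 muscle genes had a lower mean with pRJ-Fr.5, as did 3 neuron genes and 1 germline gene. At an unadjusted p under 0.05, 2 muscle genes were lower, 1 neuron gene was lower and 1 higher, and 2 germline genes were higher. In the intestine, 2 of 5 were called lower, with the largest change in *act-5* (-0.42), and in the pharynx 1 of 5 was called higher (*pha-4*, 0.50). Of 6 genes listed for the early embryo, *end-1*, *med-1* and *tbx-38* were not above background on all arrays, and 2 of the other 3 were called higher (*tbx-37* 0.60, *end-3* 0.44). The third, *hlh-1*, was at 0.32 and was not called (adjusted p = 0.116 from limma). The summed signal of these 3 was 0.65 to 0.88 over the pRJ-Fr.5 arrays and 0.58 to 0.61 over the control arrays. Most of it was that of *hlh-1*, so that the sum mainly followed a gene that was not called. It is not taken as a measure of embryos. The part of embryos, or of the stage of the worms, in the decrease of the collagens was not tested.

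Over the 6 arrays, the 5 genes outside the list with a profile nearest to the mean profile of the 10 collagens were *itm-2*, *col-131*, *C02F4.4*, *H03E18.1* and *C05C9.1*. After each gene was centered on its own mean, their root mean square difference from that profile was 0.04 to 0.06 log2 units. Of the 10 collagens themselves, *dpy-13* was nearest to it (0.17) and *dpy-17* furthest from it (0.87), with *lon-3* at 0.48 and *sqt-3* at 0.45. The 5 genes were picked as the nearest of all genes with a current symbol outside the list. That they were nearer than every collagen of the 10 was thus nearly fixed by this choice. It is no result about the collagens. The mean profile describes several of the collagens poorly, and *dpy-17* least well.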

How the data were processed

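The deposited scanner files hold spot intensity with the background subtracted and no normalization between arrays (Agilent Feature Extraction, version 10.7.1.1). The authors also deposited a series table that holds the ratio of this signal to the 75th percentile of its array. Control spots and outlier-flagged spots were dropped, the mean over spots of each probe was put on the log2 scale, and the 75th percentile was subtracted, as in the study's methods. Probes positive and well above background on all 6 arrays were kept (27514 of 43603), and kept probes were averaged per gene. Symbols came from RefSeq (WBcel235) through sequence names, for 80.0% of probes. The other probes kept the name in the array's annotation, and each such name counted as a gene, also in the shares and ranks. Coordinates are left out, since the array's build differs, and promoter, protein and probe sequences were not analysed here. Groups were compared in limma 3.58.1 (R 4.3.3) over all genes with Benjamini-Hochberg adjustment. No spot was saturated (0). Named genes were the 10 members, examples with the largest or smallest change of a list, and 5 genes nearest in profile. Genes of the other lists named beside these were chosen after their values were seen. Members and lists were chosen with earlier results of these data known. Alternatives were the methods' t-test, normexp (offset 50) on the median spot signal, other scalings and filters, the series table, blocks for slide or replicate, slide 1 alone, the brightest probe and each array left out. The test was checked on simulated data.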

Additional observations from a re-analysis of the deposited data

How the results depend on the processing

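Over 19 alternatives to the processing, the 8 collagens called lower were called lower in every one. Among all genes tested, 2113 to 3352 were called lower. With the t-test, the looser filters on dim probes and the blocks, the fold changes of the 10 could not differ from those of the main fit. Those settings bear on the p-value alone. Of 190 values of the 10 collagens, 186 kept their direction and their side of the threshold. The remaining 4, in which a call was gained, were *sqt-3* within slide 1 alone (-0.71) and without pRJ-Fr.5 replicate 3 (-0.74), and *dpy-17* without pRJ-Fr.5 replicate 1 (0.89) and without this array and control replicate 3 together (0.82), an alternative chosen after seeing the data. For *sqt-3*, the low values on pRJ-Fr.5 replicates 1 and 2 lay mainly in the dimmer of its 2 probes. With the brighter probe alone it was at -0.14 and not called. The cause was not tested. With each array left out, 8 to 9 collagens were called lower, with medians from -1.24 to -1.01 (-1.27 without the 2 arrays together). With 1 array left out, 2226 to 3318 of all genes were called lower, of 16048 to 18488 tested. Within slide 1 alone the median was -1.04, and 2433 of the 16048 genes were called lower. The methods' t-test after adjustment also called 8, and by it 2283 of the 16048 genes were called lower. With the replicate number as a block, 8 were called, with adjusted p from 0.0120 to 0.0232 in limma. Of the 16048 genes, 2480 were called lower with this block, against 3064 without it. The deviations of arrays with the same number had correlations of -0.24, 0.05 and -0.03 across genes, so that the numbers were not taken as pairs. The number of arrays limits the precision.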
